A study of Mus musculus with 12 samples.

Results

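Copper enters mouse cells through the membrane channel CTR1 (Slc31a1) and is handed on by small cytosolic carriers to the cell's copper enzymes. The list examined here holds 10 genes of that route: the importer, the carriers Atox1 and Ccs, the exporting pump Atp7a, the enzymes Sod1 and Cp, and the mitochondrial copper proteins Cox17, Cox11, Sco1 and Sco2. Members were found by the symbols that the array annotation gives to the transcript clusters. For 9 of the 10 a cluster was found, 1 for each gene, among 19505 genes measured; Sco2 was not analysed here. Cuprizone, the agent of the study, is itself a copper chelator.

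Atox1 brings copper to Atp7a in the trans-Golgi, where secreted enzymes such as ceruloplasmin (Cp) are loaded, and Ccs loads the cytosolic superoxide dismutase Sod1. In mitochondria Cox17 passes copper to Sco1 and Cox11, which, as known from yeast and human cells, fill the CuA and CuB sites of cytochrome c oxidase. Astrocytes hold copper for the brain, and they carry Cp at the cell surface as a ferroxidase that lets iron leave.

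White matter cells were dissociated with papain and taken with beads against GLAST, the astrocyte glutamate transporter encoded by Slc1a3. All mice were C57BL/6. The 4 groups were wild-type mice after 0, 3 and 12 weeks on a powdered diet with 0.2% (w/w) cuprizone, and GnT-IX-deficient mice after 12 weeks on that diet, each with 3 biological replicates and 1 array per replicate. Feeding started when the mice were 8 to 12 weeks old, so longer feeding also meant older mice, and cuprizone and age cannot be told apart. GnT-IX is the glycosyltransferase encoded by Mgat5b. No GnT-IX-deficient mice at 0 weeks and no untreated mice kept for 12 weeks were analysed here.

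Values are log2 signals after RMA, the normalization of Affymetrix arrays, and array medians lay between 5.38 and 5.45. Mgat5b read 3.70, 4.19 and 4.06 in the GnT-IX-deficient arrays, below the 5.57 to 6.49 of the 9 wild-type arrays. All 10 astrocyte markers, but also all 10 markers of mature oligodendrocytes, lay above the lower quartile of every array. The mean of 13 microglia markers was 5.21 to 5.83 at 0 weeks, 6.72 to 9.02 at 3 weeks, 8.09 to 9.17 at 12 weeks and 7.43 to 8.47 in GnT-IX-deficient arrays. Choroid plexus markers (9 genes) averaged 4.93 to 6.47 in wild-type arrays and 8.82, 7.76 and 6.09 in GnT-IX-deficient replicates 1, 2 and 3. In such bulk samples fewer cells of a type and less RNA per cell cannot be told apart. With 3 arrays a group, precision is limited by their number.

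Of the 9 copper genes measured, 1 passed the test after 12 weeks, where 2.64% of all genes did: Cp rose 2.03-fold, with its 3-week mean in between. Of the genes of copper delivery to cytochrome c oxidase, Cox17 and Cox11 had the largest differences among the 9 at 3 weeks. Cox17 had a higher and Cox11 a lower mean, but neither passed the test. Sco1 differed by 0.25. Slc31a1, Ccs and Sod1, the importer and the superoxide dismutase branch, had overlapping values in all 4 comparisons. Most genes overlapped in each, as 10.8% to 21.2% of all genes did not. No copper gene passed the test between the genotypes. Genes were tested with limma across all 19505 genes, and "rose" or "fell" below means a Benjamini-Hochberg adjusted p under 0.05.

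**Figure D1:**
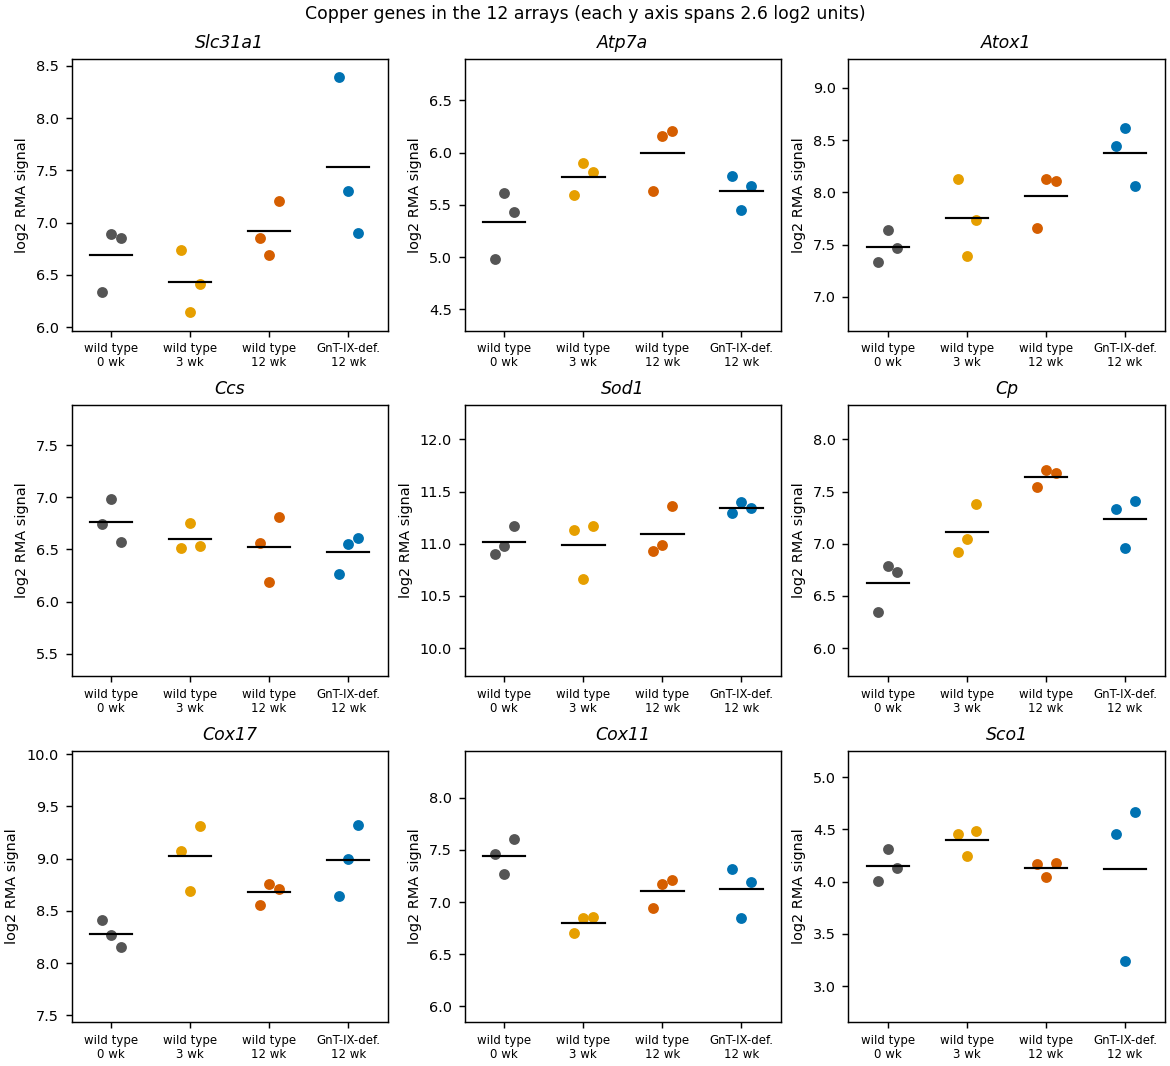
Log2 RMA signal of the 9 measured copper genes (y axis) in the 4 groups (x axis, weeks of cuprizone). Points are single arrays, replicates 1 to 3 from left to right, and bars are group means over 3 arrays; Cp lies at 6.35 to 6.79 at 0 weeks and 7.54 to 7.71 at 12 weeks, and Cox11 has its 3 lowest wild-type values at 3 weeks.

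The importer gene Slc31a1 read 6.34, 6.89 and 6.85 at 0 weeks, 6.74, 6.14 and 6.41 at 3 weeks, and 6.85, 6.69 and 7.21 at 12 weeks. Each of these wild-type groups overlapped the others. In the GnT-IX-deficient arrays it read 8.39, 7.30 and 6.90, with replicate 1 far above the rest. The difference between genotypes was 0.61 (SE 0.31, 95% interval -0.04 to 1.27), which limma did not call (adjusted p = 0.732). Those 3 arrays stand in the same order for Slc31a1 as for the choroid plexus markers. The means of the 10 endothelial markers, 7.16, 6.67 and 6.25, have that order too. Without GnT-IX-deficient replicate 1 the difference was 0.18. The part of choroid plexus or endothelial RNA in these values was not tested.

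Atox1, the carrier that serves Atp7a, read 7.33, 7.64 and 7.47 at 0 weeks and 7.66, 8.13 and 8.11 at 12 weeks, so those groups did not overlap. At 3 weeks it read 8.13, 7.39 and 7.73, spanning much of that range, and in GnT-IX-deficient arrays 8.44, 8.62 and 8.06. The 12-week difference from 0 weeks was 0.49 (95% interval 0.03 to 0.95) and did not pass the test (limma adjusted p = 0.301).

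Ccs, the copper chaperone of superoxide dismutase, had group means of 6.76 ± 0.21 (SD, n = 3) at 0 weeks, 6.60 ± 0.13 at 3 weeks, 6.52 ± 0.31 at 12 weeks and 6.48 ± 0.18 in GnT-IX-deficient mice. Its target Sod1 had means of 11.02 ± 0.14, 10.99 ± 0.28, 11.09 ± 0.23 and 11.34 ± 0.06 in the same order. For Ccs the 12-week difference of -0.24 had a 95% interval of -0.65 to 0.16, and for Sod1 the difference of 0.08 had one of -0.31 to 0.46. These intervals leave room for changes of up to about 1.57-fold for Ccs and 1.38-fold for Sod1, so equal levels are not shown.

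The export pump gene Atp7a read 4.98, 5.61 and 5.43 at 0 weeks, 5.59, 5.90 and 5.81 at 3 weeks, and 5.63, 6.16 and 6.21 at 12 weeks. The lowest 12-week array lay just above the highest 0-week array. Its difference at 12 weeks was 0.66 (SE 0.21, 95% interval 0.22 to 1.10), next in size to that of Cp, and missed the threshold (limma adjusted p = 0.119). With the 12-week replicate 1 left out the adjusted p was 0.0499, on the other side of the threshold. In the other 13 of 14 alternatives the difference did not pass. Leaving out other single arrays gave limma adjusted p of up to 0.415. In GnT-IX-deficient arrays Atp7a read 5.78, 5.45 and 5.68, within the wild-type range.

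Ceruloplasmin, the copper ferroxidase that is also counted among the general markers of reactive astrocytes, read 6.35, 6.79 and 6.73 at 0 weeks. It read 6.92, 7.05 and 7.38 at 3 weeks and 7.54, 7.71 and 7.68 at 12 weeks. The 3 wild-type groups did not overlap in any pairing. From 0 to 12 weeks Cp rose by 1.02 (SE 0.19), a 2.03-fold change with a 95% interval of 1.54 to 2.67 (limma adjusted p = 0.0100, rank 125 of 19505 by p). The call was lost when the 0-week replicate 1 was left out (difference 0.88, adjusted p = 0.0616) and when the 12-week replicate 2 was (0.99, adjusted p = 0.0650). Its differences of 0.49 from 0 to 3 weeks and of 0.53 from 3 to 12 weeks did not pass the test (adjusted p = 0.192 and 0.282). The 3-week and 12-week comparisons share the 0-week arrays.

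GnT-IX-deficient arrays read 7.33, 6.96 and 7.41 for Cp, all below the 12-week wild-type arrays and all above the 0-week arrays. That difference of -0.41 (SE 0.19, 95% interval -0.81 to -0.01) did not pass the test after adjustment (limma adjusted p = 0.700). Of the 13 microglia markers, 10 rose at 3 weeks and 11 at 12 weeks, and of 10 endothelial markers 4 rose at 12 weeks, with array means of 5.63 to 5.84 at 0 weeks and 6.52 to 6.92 at 12 weeks. The part of other cells in the 12-week rise of Cp was not tested. Of the 19504 other genes, those with values most like Cp over the 12 arrays, by Pearson's r, were Vstm4 (0.91), Prim2 (0.91), Olfr143 (0.89), Rlbp1 (0.89) and Bcas1 (0.88). Olfr143 was dim, at 2.65 to 3.72, below the lower quartile of every array (3.73 to 3.85). The arrays come from 4 groups, so differences between groups alone raise such r values.

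**Figure D2:**
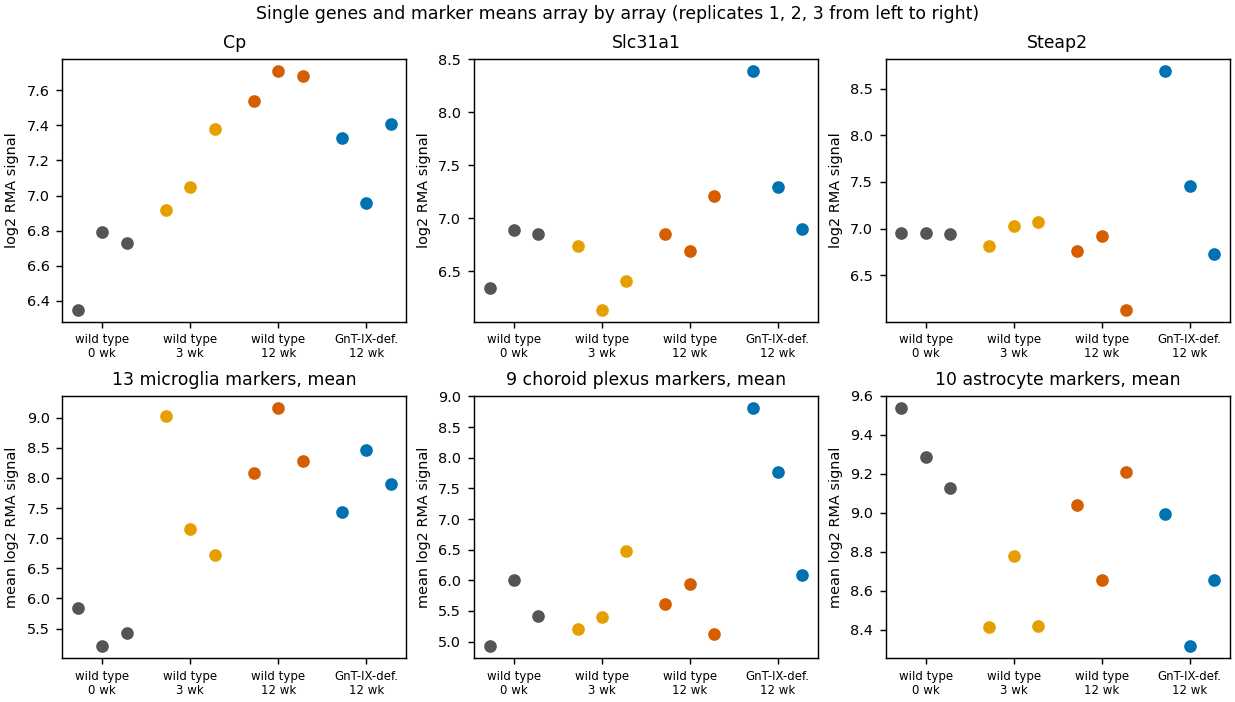
Log2 RMA signal of Cp, Slc31a1 and Steap2 (top) and the mean log2 signal of microglia, choroid plexus and astrocyte markers (bottom) in each of the 12 arrays, grouped by weeks of cuprizone and genotype. Cp is lowest at 0 weeks and highest at 12 weeks in wild type. Slc31a1 and Steap2 peak in GnT-IX-deficient replicate 1, which has the highest choroid plexus mean (8.82) and the highest endothelial mean (7.16, not drawn).

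The DNA just before the start sites of Cp and Atp7a is shown because these genes had the largest differences at 12 weeks. Windows of 250 bases before each start were taken from RefSeq (GRCm38.p6), which held an entry for 8 of the 10 listed genes, with more than 1 start for Cp, whose other window is not shown. Capitals mark matches on either strand to the core of the metal response element (TGCGCNC or TGCACNC), bound by the metal sensor MTF1, and to the core of the hypoxia response element (ACGTG).
Cp, chr3:19956804-19957053, + strand: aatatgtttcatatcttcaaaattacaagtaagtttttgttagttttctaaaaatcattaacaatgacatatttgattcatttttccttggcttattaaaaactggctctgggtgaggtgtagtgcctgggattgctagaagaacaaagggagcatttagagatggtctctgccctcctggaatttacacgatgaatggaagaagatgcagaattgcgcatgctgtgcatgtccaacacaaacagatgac
Atp7a, chrX:106026974-106027223, + strand: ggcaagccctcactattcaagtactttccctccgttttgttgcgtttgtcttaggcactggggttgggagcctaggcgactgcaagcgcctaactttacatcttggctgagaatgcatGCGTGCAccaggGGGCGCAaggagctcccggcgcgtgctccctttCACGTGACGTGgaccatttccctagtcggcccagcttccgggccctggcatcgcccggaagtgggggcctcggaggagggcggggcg
The Cp window held no match to either core and 37.2% G and C. The Atp7a window held 62.4% G and C, 2 metal response cores, neither overlapping another match, and 3 hypoxia cores. The first and the next of these overlap, on opposite strands, and the last directly follows them. Among 32851 windows of that length, 21.4% held a metal response core and 16.6% a hypoxia core. No other member's window held either core. The GC box (GGGCGG), in 32.7% of all windows, was found for Slc31a1, Atox1, Sco1, Sco2, Sod1 and Atp7a, and the antioxidant response core (TGACNNNGC), in 10.2%, for Atox1, Cox11 and Sod1, both on either strand and not in capitals above. Such matches describe the letters only.

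Cox17, which carries copper into the assembly of cytochrome c oxidase, read 8.41, 8.27 and 8.15 at 0 weeks and 9.07, 8.69 and 9.31 at 3 weeks. At 12 weeks it read 8.56, 8.76 and 8.71, between those groups but for its overlap with the lowest 3-week array, and in GnT-IX-deficient arrays 8.64, 9.0 and 9.32. The 3-week difference was 0.75 (SE 0.20, 95% interval 0.32 to 1.18) and missed the threshold (limma adjusted p = 0.0576). It passed without the dimmest 30% of genes, with trend and robust variance, with array weights and with the 3-week replicate 2 left out (adjusted p of 0.0452, 0.0456, 0.0263 and 0.0304). In the other 10 of 14 alternatives it did not pass. Leaving out single arrays gave limma adjusted p of up to 0.203.

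Cox11, which delivers copper to the CuB site, read 7.46, 7.27 and 7.60 at 0 weeks and 6.70, 6.85 and 6.86 at 3 weeks. At 12 weeks it read 6.94, 7.17 and 7.21, above every 3-week array and below every 0-week array. Its 3-week difference was -0.64 (SE 0.17, 95% interval -1.01 to -0.27), which also missed the threshold (limma adjusted p = 0.0561). It passed with a second quantile normalization, median centring, without the dimmest 30% of genes and with array weights (adjusted p of 0.0468, 0.0428, 0.0423 and 0.0465). In the other 10 of 14 alternatives it did not pass. Leaving out single arrays gave limma adjusted p of 0.0861 to 0.194. GnT-IX-deficient arrays read 7.32, 6.85 and 7.19, near the 12-week wild-type mean of 7.11 (difference 0.01, 95% interval -0.35 to 0.38).

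Sco1, the partner of Cox17 at the CuA site, was dim, with a median of 4.22 over the 12 arrays. One array, GnT-IX-deficient replicate 2 at 3.24, lay below its lower quartile and against 4.46 and 4.67 in the other arrays of that group. The 3-week arrays (4.46, 4.25 and 4.48) lay above the 12-week arrays (4.17, 4.04 and 4.18), a difference of -0.27 for 12 against 3 weeks that did not pass the test (limma adjusted p = 0.771). RMA compresses the differences of dim genes.

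**Figure D3:**
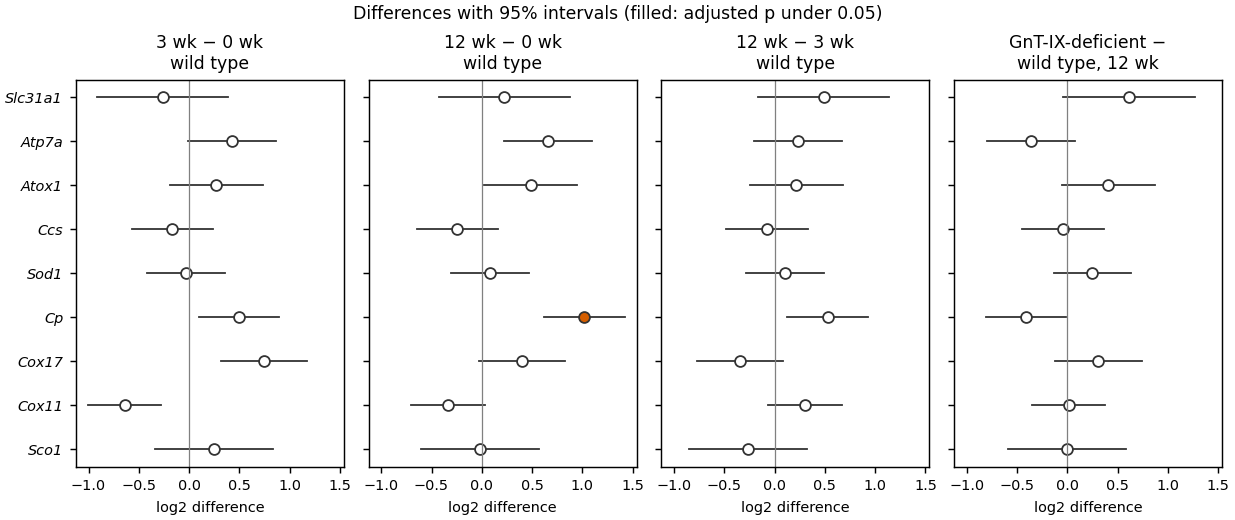
Log2 differences (x axis) of the 9 measured copper genes (rows) in the 4 comparisons, with 95% intervals from the limma fit over 12 arrays. The filled point, Cp at 1.02 for 12 against 0 weeks, is the one with an adjusted p under 0.05; Cox17 (0.75) and Cox11 (-0.64) lie on opposite sides of 0 at 3 weeks.

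Counted over the list, 0 of the 9 members passed the test at 3 weeks, where 3.24% of all genes did (1.61% higher and 1.63% lower). In limma 3 of 9 had an unadjusted p under 0.05, as had 16.1% of all genes, and the members' median difference was 0.25 against -0.017 for all genes. Values of 3 members did not overlap between 3 and 0 weeks (Cp, Cox17 and Cox11), where 21.2% of all genes did not. At 12 weeks 1 of 9 passed, where 2.64% of all genes did (2.11% higher and 0.523% lower), and 5 did not overlap the 0-week group, against 20.8% of all genes. These were Cp, Atp7a, Atox1 and Cox17 with higher values (10.8% of all genes) and Cox11 with lower values (9.95%), and the members' median was 0.22 against -0.013. Between 12 and 3 weeks 0 of 9 passed in limma, where 0.0820% of all genes did. An unadjusted p under 0.05 was seen for 1 of 9 and for 11.4% of all genes, and 3 did not overlap, against 15.9%. Between genotypes 0 of 9 passed in limma, where 0.0256% of all genes did. An unadjusted p under 0.05 was seen for 1 of 9 and for 6.99% of all genes, and Cp alone did not overlap, against 10.8%.

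Other copper genes passed the test at 3 weeks, among them enzymes that are loaded in the secretory pathway. Of 14 such enzyme genes measured, 3 passed the test, where 3.24% of all genes did, Sod3 and Loxl1 falling and Pam rising. In limma 8 of the 14 had an unadjusted p under 0.05 (16.1% of all genes), 8 did not overlap between the groups (21.2% of all genes), and the list median was -0.32 against -0.017 for all genes. Some of the 14 were dim: Tyr, among those not overlapping, read 2.26 to 3.31 over the 12 arrays and Lox 2.52 to 3.53. Both lay below the lower quartile of every array (3.73 to 3.85). Sod3, the extracellular superoxide dismutase, read 7.90, 7.47 and 7.53 at 0 weeks and 6.41, 6.85 and 6.92 at 3 weeks, a fall of 0.91 (SE 0.18, limma adjusted p = 0.0159). It was at 7.10, 7.34 and 7.13 at 12 weeks and at 6.67, 6.39 and 6.48 in GnT-IX-deficient arrays, which did not overlap (difference -0.68, adjusted p = 0.412). Loxl1, a lysyl oxidase that cross-links elastin, went from 6.20, 6.09 and 5.65 to 5.24, 5.09 and 5.25 (-0.79, adjusted p = 0.0481). Pam, which amidates neuropeptides, went from 8.40, 8.49 and 8.45 to 9.03, 9.30 and 9.40 (0.80, adjusted p = 0.0466). None of the 14 passed at 12 weeks, when 4 had an unadjusted p under 0.05 in limma, as had 15.1% of all genes.

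Among the other copper transport and storage genes (13 measured), Steap3, a ferrireductase of endosomes that also reduces copper, fell at 3 weeks from 8.15, 7.52 and 7.58 to 6.45, 7.05 and 6.83. The difference was -0.97 (limma adjusted p = 0.0496), and 1 of the 13 passed at 3 weeks, where 3.24% of all genes did. In limma 5 of the 13 had an unadjusted p under 0.05 (16.1% of all genes), and the list median was 0.01. Values of 6 did not overlap between 3 and 0 weeks (21.2% of all genes), 5 lower and 1 higher at 3 weeks. None of the list passed at 12 weeks, where 2.64% of all genes did (limma, 0 at an unadjusted p under 0.05, against 15.1% of all genes). The metallothionein genes Mt1 (9.46, 9.48 and 9.36, then 8.73, 9.18 and 8.79) and Mt3 (9.55, 9.51 and 9.42, then 9.21, 8.81 and 8.88) were lower in all 3-week arrays than in all 0-week arrays. The differences of Mt1 and Mt3, -0.53 and -0.53, did not pass the test (limma adjusted p = 0.199 and 0.164). Mt2 was also lower in all 3-week arrays (9.41, 9.29 and 9.29, then 8.75, 9.24 and 8.67) and did not pass. Mtf1, the gene of the metal sensor MTF1, was higher in all 3-week arrays (7.72, 7.74 and 7.21, then 7.94, 8.14 and 8.08) and did not pass either. Steap2, a reductase related to Steap3, read 8.69, 7.46 and 6.73 in GnT-IX-deficient arrays and 6.13 to 7.07 in wild-type arrays. Both the choroid plexus and the endothelial marker means have that order in the GnT-IX-deficient arrays, and the part of either was not tested.

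These calls at 3 weeks sat close to the threshold. The fall of Sod3 missed it when replicate 1 was left out at 0 weeks or at 3 weeks (adjusted p = 0.0885 and 0.0784), and that of Steap3 without each array in turn but replicate 2 of the 3-week group (0.0809 to 0.210). Loxl1 missed it without any one array but replicate 3 of the 0-week group (0.0946 to 0.190), and Pam without any one array (0.0693 to 0.15). At 3 weeks 6 of 10 astrocyte markers fell, Slc1a3 among them, and 1, Gfap, rose by 1.97 (limma adjusted p = 0.0305). In the same comparison 2 of 10 neuron markers rose, with array means of the neuron markers of 6.30 to 6.96 at 0 weeks and 6.65 to 7.30 at 3 weeks. Of 13 microglia markers 10 rose, with array means of 5.21 to 5.83 at 0 weeks and 6.72 to 9.02 at 3 weeks. The part of these cell types in the changes was not tested.

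The rest of the cytochrome oxidase genes gave no call. Of 15 other assembly genes none passed at 3 weeks (limma; 2 at an unadjusted p under 0.05), with differences from -0.33 to 0.58 and a median of 0.13, and none at 12 weeks (1 at an unadjusted p under 0.05). Of 11 nuclear subunit genes none passed at 3 weeks (1 at an unadjusted p under 0.05) or 12 weeks (0), with medians of 0.06 and 0.19. Of all genes 3.24% passed at 3 weeks and 2.64% at 12 weeks, and 16.1% and 15.1% had an unadjusted p under 0.05 in limma. Between genotypes 10 of the 15 assembly genes had higher means in GnT-IX-deficient arrays, with a median of 0.20. Of these 15, 5 did not overlap (4 higher, 1 lower), against 10.8% of all genes, and none passed. Of the 11 subunits 10 had higher means in GnT-IX-deficient arrays, with a median of 0.32 against -0.013 for all genes. Values of 7 of the 11 subunits did not overlap, against 10.8% of all genes. None passed (limma; 4 at an unadjusted p under 0.05, against 6.99% of all genes), and the choroid plexus and ependymal marker means of these arrays averaged 7.56 and 7.91, against 5.56 and 7.0 in 12-week wild-type arrays, a part that was not tested.

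**Figure D4:**
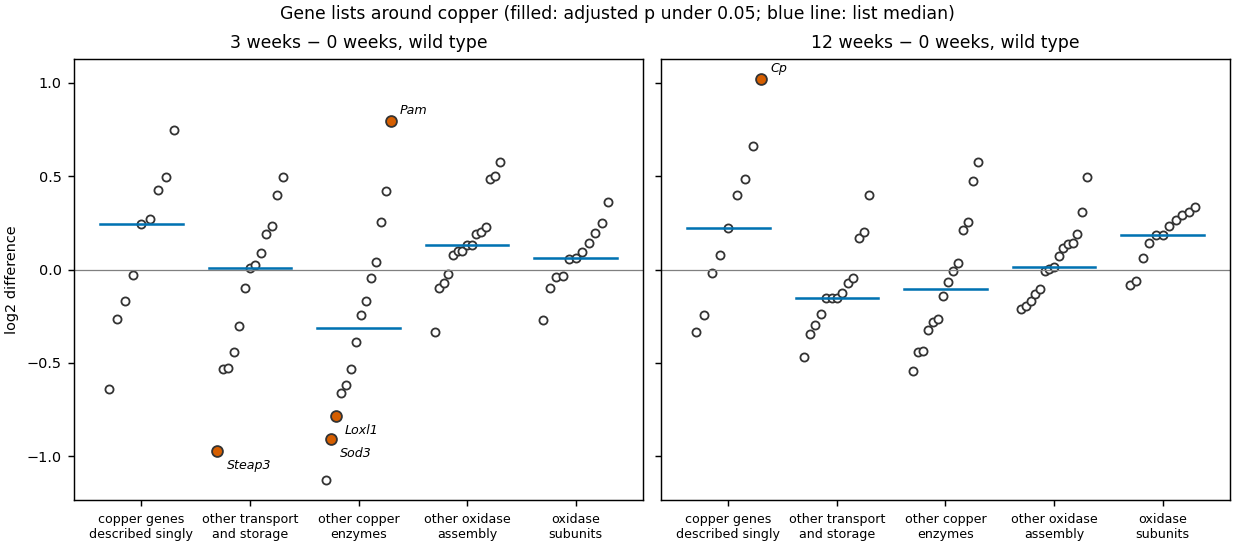
Log2 differences from 0 weeks (y axis) of the genes in 5 lists around copper, at 3 weeks (left) and 12 weeks (right) in wild type. Each point is a gene, sorted within its list; blue lines are list medians and filled points passed the test, which were Pam (0.80), Loxl1 (-0.79), Sod3 (-0.91) and Steap3 (-0.97) at 3 weeks and Cp (1.02) at 12 weeks.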

How the data were processed

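Expression was measured on 12 Affymetrix arrays, 4 groups of 3. Per the submitters' processing notes, the authors used Affymetrix Expression Console 1.4 with RMA, and the deposited values were read as log2 from their range (1.43 to 12.5). For the array values a build was not given in the sources used here; the promoter windows carry RefSeq coordinates of GRCm38.p6. Per the labels' protocols, RNA came from 1 of a pair of kits, and kit and group cannot be matched.

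The table held 22206 transcript clusters. By Entrez identifier 19572 were named through the platform annotation and RefSeq (GRCm38.p6), none had several symbols, and 2634 are unnamed here and were left out. For 55 genes with several clusters the brightest over 12 arrays was used, leaving 19505 genes with no filter. Differences, standard errors and p-values came from limma 3.58.1 run in R 4.3.3 (lmFit, then eBayes; two-sided, 1 mean per group, all 12 arrays, 8 residual degrees of freedom), adjusted by Benjamini-Hochberg over all genes at 0.05. On simulated data (19505 genes) the test recovered 57% of genes with a log2 change of 1 at 3 against 0 weeks, and 62% at 12 against 0 weeks. There 200 genes were changed, by 1 or 2, with independent normal noise, so the share recovered in the real data can differ.

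Members, lists and alternatives were chosen with earlier results of these data known. All members, Mgat5b and Slc1a3 are named. From each list up to 4 genes past the threshold per comparison were eligible, with the largest differences first, as were the 5 genes most correlated with each member that passed. Mt1, Mt2, Mt3, Mtf1, Steap2, Tyr and Lox were named after their values were seen. Other settings tried were quantile normalization, median centring, dropping dim genes, averaging a gene's clusters, trend and robust variance, array weights, fitting only 6 arrays, a replicate block and leaving out arrays. Arrays of a group correlated with r of 0.974 to 0.985, and no columns were identical. Figures were drawn with matplotlib 3.10.9.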

Additional observations from a re-analysis of the deposited data

How the results depend on the processing

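In the 3 against 0 weeks comparison none of the 9 members measured passed in limma as reported. However, 1 member passed after a second quantile normalization, 1 after median centring and 1 with trend and robust variance. Without the dimmest 30% of genes 2 members passed, and with array weights 2. These were Cox17 and Cox11. Leaving out single arrays gave 0 to 1 there and 0 to 2 for 12 against 0 weeks. No member passed in the other comparisons under any alternative run. Over all genes, leaving out single arrays gave 192 to 643 calls (632 reported) for 3 against 0 weeks, under the reported count by over 1.5 times without replicate 1 (192), 2 (244) or 3 (360) of the 0-week or replicate 1 (270) or 3 (385) of the 3-week group. For 12 against 0 weeks it gave 77 to 504 (514 reported), with 144 and 105 without replicate 1 or 2 of the 0-week and 77 and 276 without replicate 2 or 3 of the 12-week group. It gave 0 to 146 for 12 against 3 weeks (16 reported), with 146, 4 and 0 without replicate 1, 2 or 3 of the 3-week and 2 and 1 without replicate 2 or 3 of the 12-week group. For the genotypes it gave 3 to 49 (5 reported), with 3 without replicate 3 of the wild-type and 9 and 49 without replicate 1 or 3 of the GnT-IX-deficient group. Array weights gave 919 calls for 12 against 0 weeks. For 12 against 3 weeks the count was 9 without the dimmest genes, 30 with trend and robust variance, 33 with array weights and 9 from only the 6 arrays compared. The causes were not tested.

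With the replicate number as a block the counts over all genes were 543, 442, 15 and 5. The count of members that passed did not change, and Steap3 (limma adjusted p = 0.0534) and Pam (0.0508) missed the threshold. The arrays share only a number: correlations of same-numbered arrays' deviations from group means ran from -0.28 to 0.22, not all above 0.1. Some differences that did not pass changed sign. Sod1 at 3 weeks was 0.022 with quantile normalization, 0.022 with array weights and -0.12 to 0.13 without single arrays. Without single arrays Sod1 ran from -0.057 to 0.16 for 12 against 0 and from -0.057 to 0.20 for 12 against 3 weeks, Sco1 from -0.090 to 0.060 for 12 against 0 weeks and Ccs from -0.22 to 0.088 for 12 against 3 weeks. Between genotypes Ccs ran from -0.21 to 0.10, Cox11 from -0.087 to 0.15 (-0.011 with array weights) and Sco1 from -0.28 to 0.44 (0.013 with median centring). With GnT-IX-deficient replicates 1 and 2 left out together, a setting chosen after seeing the data that removes the highest Slc31a1 values of that group and leaves 1 array, assumed to vary like the other groups, Slc31a1 was at -0.017, Ccs at 0.090 and Sco1 at 0.54. Pam also missed the threshold with median centring (0.0551), and Loxl1 from only the 6 arrays compared (0.0534). Which transcripts were above background was not measured.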
